A study of Mus musculus with 17 samples.

Results

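Liver from mice in which FSP1-expressing or aSMA-expressing cells had been ablated during carbon tetrachloride (CCl4) injury was set, as 1 group of 7 arrays, against liver with CCl4 injury alone, and the genes that both ablations moved in the same direction were described. The members are 13 of the 17 Illumina bead arrays of the series, chosen by sample title: 4 FSP1 ablated, 3 aSMA ablated and 6 CCl4 arrays. All 13 carry the label CCl4-induced fibrosis and received CCl4, a solvent that kills hepatocytes around the central vein and scars the liver on repeated exposure. In the tk label, the CCl4 arrays are Neg, the FSP1 ablated arrays are FSP1 + and the aSMA ablated arrays are aSMA +. The other 4 arrays are untreated healthy liver, labelled No for tk, and served here to estimate the spread and to show the level in liver without injury. FSP1 is the protein of S100a4 and aSMA that of Acta2, and each names the cells that were ablated. The labels used here give no strain, age, sex, CCl4 dose, duration or drug of ablation, and do not say that arrays came from separate animals, so that p-values measure the spread between these arrays, which may in part be technical.

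In an injured liver, stellate cells and portal fibroblasts turn into myofibroblasts, which make contractile proteins such as aSMA, deposit collagen and release inhibitors of matrix breakdown such as TIMP1. FSP1 is widely used as a fibroblast marker, but in injured liver it is also found on cells of the macrophage lineage. Hepatocytes that survive the injury leave rest, pass through S phase and divide, while the genes of drug metabolism and secretion that mark a mature hepatocyte are held lower. RNA of whole liver holds all of these cells, and in such bulk samples fewer cells of a type and less RNA per cell cannot be told apart.

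Between 13784 and 15869 of 25697 probes lay above background on each array. Values are log2 intensities after background correction and quantile normalization, and differences are on that log2 scale. The hepatocyte transcripts Ttr and Apoa1 had group means of 14.46 to 14.49 and 14.43 to 14.53 in all 4 groups, as liver should have, while the B cell marker Cd79a lay at 5.94 to 6.15. By Xist and Alb signal the CCl4 arrays were of 2 kinds, and Y-linked signal parted the second kind further. Xist, an RNA that cells with 2 X chromosomes make, lay at 7.98 to 8.55 on CCl4 arrays 1 to 3 and at 7.36 to 9.43 on all 7 ablated arrays, but at 6.04 to 6.14 on CCl4 arrays 4 to 6. The Y-linked Eif2s3y was high, at 9.54 and 9.55, on CCl4 arrays 5 and 6 and on no ablated array, and CCl4 array 4 had neither signal. The healthy arrays had Eif2s3y at 9.27 to 9.40, Xist at 5.76 to 5.96 and Alb at 6.29 to 6.75, so that they differ from the ablated arrays in sex signal too. The probe for Alb, the gene of albumin, was low on CCl4 arrays 1 to 3 (6.45 to 6.59) and on the FSP1 ablated arrays (6.41 to 6.66) and high on CCl4 arrays 4 to 6 (8.66 to 9.33) and on the aSMA ablated arrays (8.83 to 9.26). It read far below the means of Ttr and Apoa1 on every array, healthy liver included. Its signal is used below to part the arrays, not as a measure of albumin RNA. The counts of the main groups below are therefore also given against CCl4 arrays 1 to 3 and against CCl4 arrays 4 to 6, and the part that sex or the source of these arrays plays in the results was not tested.

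S100a4 itself did not pass the test. Its probe read 6.15 to 6.35 on the CCl4 arrays, 6.14 to 6.26 on the FSP1 ablated arrays and 6.11 to 6.24 on the aSMA ablated arrays, with a pooled difference of -0.05 (SE 0.05) and an adjusted p of 0.701. On the healthy arrays it read 6.09 to 6.40, and all groups overlapped. These readings are low, close to those of the B cell marker Cd79a, so that a change in S100a4 RNA could be missed by this probe. Acta2 fell with both ablations. It lay at 9.18, 10.27 and 11.35 (lowest, median and highest) on the CCl4 arrays, at 7.84, 7.47, 7.07 and 7.76 on FSP1 ablated arrays 1 to 4, and at 7.74, 9.34 and 7.47 on aSMA ablated arrays 1 to 3. The groups overlapped through 1 array, aSMA ablated array 2, which stood above the lowest CCl4 array. The pooled difference was -2.59 (SE 0.39, adjusted p 0.004), made up of -2.87 with FSP1 ablation and -2.22 with aSMA ablation, and it passed in all 31 settings tried, with values between -3.20 and -1.98.

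Of 12863 features tested, 633 (4.92%) differed between the 7 ablated and the 6 CCl4 arrays at an adjusted p under 0.05 in limma's fit, 180 (1.40%) higher and 453 (3.52%) lower with ablation. With arrays centred on their medians in place of quantile normalization the split was 332 higher and 416 lower. A feature was taken as moved the same way by both ablations when it passed this test and each ablation differed from CCl4 in that direction at an unadjusted p under 0.05. There were 513 such features (3.99%), 139 higher (1.08%) and 374 lower (2.91%), of which 467 have a gene symbol. Centred on medians, 283 moved the same way upward and 319 downward, and 427 of the 513 were among these. Among the 374 lower features the median difference was -0.58, with -0.68 in the FSP1 ablated and -0.45 in the aSMA ablated arrays, and 81 fell by 2-fold or more. Among the 139 higher features the median was 0.54, with 0.58 and 0.43 in the separate ablations, and 16 rose by 2-fold or more. Over all features tested the median difference was 0.01. Every ablated array stood above or below every CCl4 array for 187 features (1.45%), 67 higher (0.521%) and 120 lower (0.933%), and 47 of the 139 higher and 107 of the 374 lower features were among them.

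The 2 ablations are set against the same 6 CCl4 arrays, so the count of features that moved the same way is a description and was not tested as an overlap. The aSMA ablated arrays by themselves passed at an adjusted p under 0.05 for 1 feature (0.00777%), Bex3, with 1435 features (11.2%) at an unadjusted p under 0.05, and the FSP1 ablated arrays for 1671 features (13%). All 120 features that passed the pooled test but were not counted as moved the same way missed the aSMA threshold, and 0 of them had opposite signs in the ablations. The pooled test averages the ablations, so a feature moved in opposite directions could hardly pass it. Of the 12863 features tested, 39 had opposite signs with each ablation at an unadjusted p under 0.05 in limma's fit. Against CCl4 arrays 1 to 3, 1208 features (9.39%) passed, 480 (3.73%) moved the same way upward and 697 (5.42%) downward. Against CCl4 arrays 4 to 6, 172 (1.34%) passed, 44 of them higher (0.342%) and 128 lower (0.995%) with both ablations, and 84 of these belong to the 513. Without CCl4 array 2, 302 features (2.35%) passed, 60 higher (0.466%) and 241 lower (1.87%) with both ablations.

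**Figure D1:**
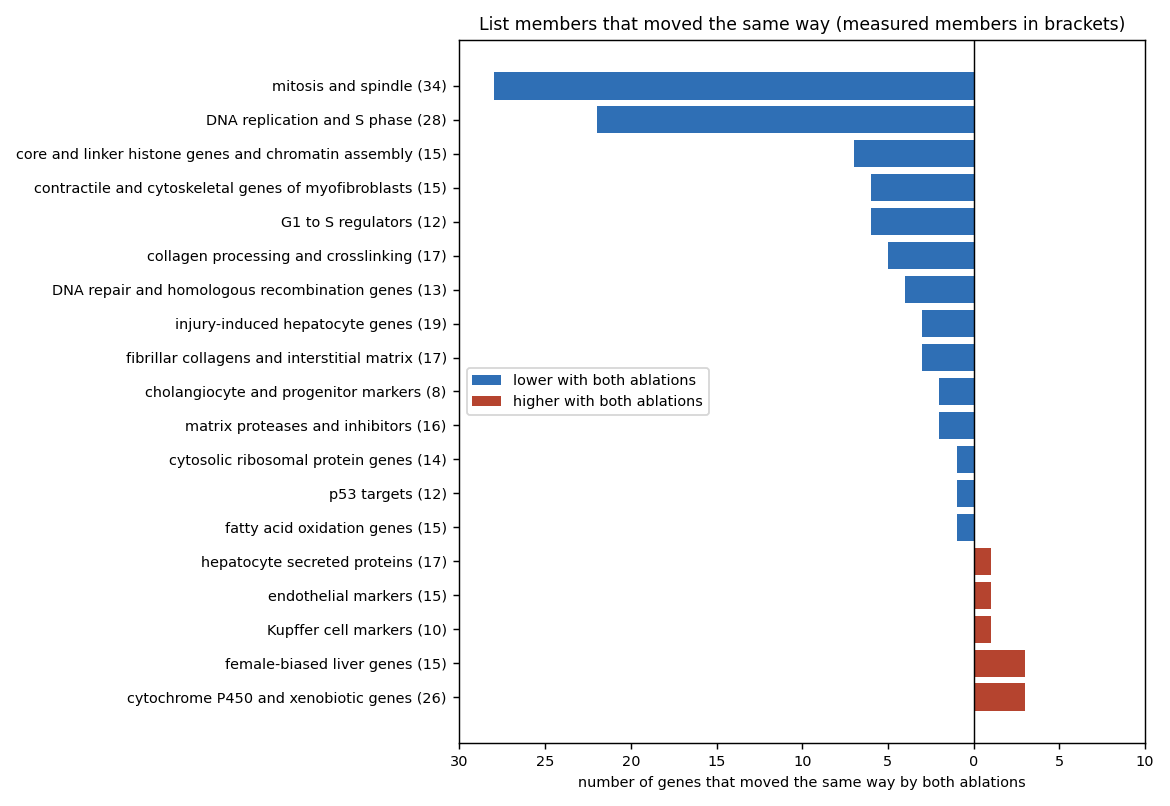
Number of genes of each list that moved the same way by both ablations against CCl4, lower to the left of 0 and higher to the right, with the number of measured genes in brackets. Of 45 lists, the 19 with such a gene are drawn. The mitosis list has 28 of 34 and the S phase list 22 of 28 genes lower, and the lists on the right have at most 3 genes higher.

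Of the 45 lists, that of mitosis held the most genes that moved the same way. The lists were chosen with earlier results of these data known, so their shares are a description and no independent support. Of 34 measured genes of mitosis and the spindle, 28 fell with both ablations (82.4%, against 2.91% of all features), 29 passed the pooled test and all 34 had a lower mean on the ablated arrays, with a median difference of -1.25. The mean level of the list was 7.62 to 8.89 on the CCl4 arrays, 6.32 to 6.89 on the FSP1 ablated arrays and 7.27 to 7.79 on the aSMA ablated arrays. All FSP1 ablated arrays thus lay below all CCl4 arrays, while the highest aSMA ablated array lay above the lowest CCl4 array, array 4. On the healthy arrays the list stood at 6.26 to 6.46. The list's median difference was -1.59 with FSP1 ablation and -0.76 with aSMA ablation.

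Cdc20, which activates the ubiquitin ligase that starts anaphase, showed the largest fall among symbol-bearing genes without overlap between the groups. It lay at 9.61, 10.34 and 11.44 (lowest, median and highest) on the CCl4 arrays, at 8.20, 6.71, 6.38 and 7.85 on the FSP1 ablated arrays and at 8.99, 9.28 and 8.95 on the aSMA ablated arrays. The 3 aSMA ablated arrays thus lay just under the lowest CCl4 array and the FSP1 ablated arrays well below it. The pooled difference was -2.35 (SE 0.47, adjusted p 0.00963). Cdca2, a chromosome-bound targeting subunit of protein phosphatase 1, fell by 1.85 (SE 0.33, adjusted p 0.00522), from 8.02 to 9.72 on the CCl4 arrays down to 6.04 to 6.83 with FSP1 ablation and 7.40 to 7.89 with aSMA ablation. The size of the Cdca2 difference varied from -2.78 to -1.27 over the settings.

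Motor proteins of the spindle moved with it. Kif22, a kinesin that pushes chromosome arms away from the poles, lay at 8.36, 9.08 and 9.83 on the CCl4 arrays, at 7.13, 6.36, 6.49 and 6.91 on the FSP1 ablated arrays and at 8.01, 8.12 and 7.92 on the aSMA ablated arrays. The groups did not overlap, and the difference was -1.82 (SE 0.29, adjusted p 0.004). Kif2c, a kinesin that takes microtubules apart at centromeres, fell by 1.54, and Kif23, the motor of the central spindle in cytokinesis, fell by 1.28. Stmn1, whose protein stathmin destabilises microtubules, lay at 7.87 to 8.53 on the CCl4 arrays, 5.91 to 6.63 on the FSP1 ablated and 7.06 to 7.67 on the aSMA ablated arrays, again without overlap.

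Further genes of chromosome segregation fell by similar amounts. The condensin subunit Ncaph fell by 1.47, the kinetochore and spindle proteins Knstrn and Spag5 by 1.39 and 1.27, Gtse1, a microtubule-binding protein of G2 and mitosis, by 1.27, and the chromosomal passenger scaffold Incenp by 1.23, each without overlap between the groups. Espl1, the protease separase that cuts cohesin, fell by 0.89 and Foxm1, the transcription factor of the G2 and mitosis program, by 1.04. Cdk1, the kinase that drives entry into mitosis, lay at 8.37, 9.51 and 10.20 on the CCl4 arrays, at 7.01, 6.31, 6.59 and 6.84 on the FSP1 ablated and at 7.68, 8.98 and 8.34 on the aSMA ablated arrays, where array 2 stood above the lowest CCl4 array. Its difference was -2.02 (SE 0.38, adjusted p 0.00759). Mki67 is not analysed here.

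Against CCl4 arrays 1 to 3, 32 of the 34 mitosis genes fell with both ablations, and against CCl4 arrays 4 to 6 the number was 6, with a median difference of -0.96 and the sign lower for all 34 in both. Without aSMA ablated array 1 it was 18, and without CCl4 array 2 it stayed at 28.

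**Figure D2:**
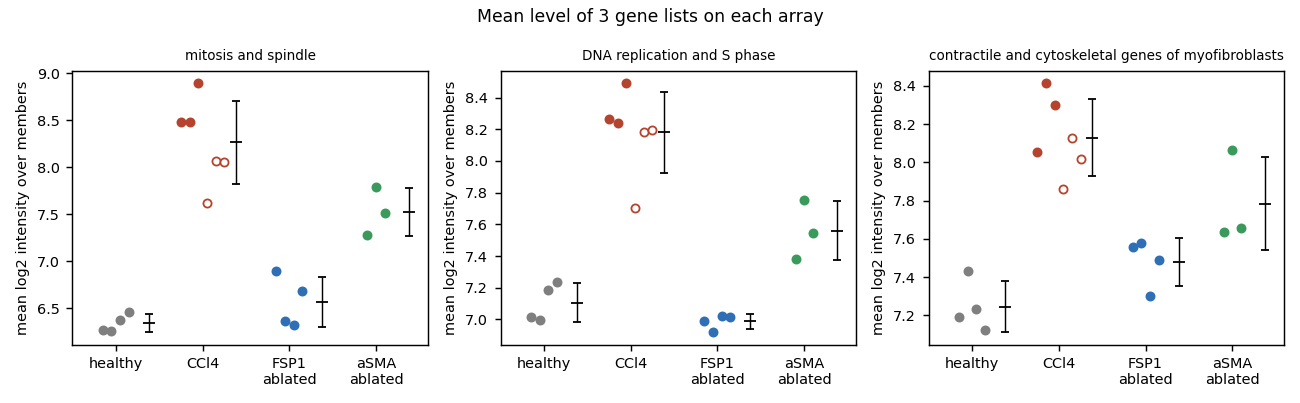
Mean normalized log2 intensity over the measured genes of 3 lists on each array. Points are arrays, open points are CCl4 arrays 4 to 6, and bars show mean and SD. The FSP1 ablated arrays lie below all CCl4 arrays in the 3 lists (6.32 to 6.89 against 7.62 to 8.89 for mitosis), and the aSMA ablated arrays lie above them, with 1 array overlapping the CCl4 arrays in each list.

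DNA replication genes fell as a second large group. Of 28 measured genes of this list, 22 fell with both ablations (78.6%), all 28 had a lower mean and the median difference was -0.83, with -1.0 in the FSP1 ablated and -0.59 in the aSMA ablated arrays. The mean level of the list was 7.70 to 8.49 on the CCl4 arrays, 6.92 to 7.02 with FSP1 ablation and 7.38 to 7.75 with aSMA ablation. The FSP1 ablated arrays lay within or below the range of the healthy arrays, 6.99 to 7.23. The healthy arrays were deposited on another intensity scale and carry Y-linked signal, so their range is only orientation.

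Mcm2 and Mcm5 are subunits of the helicase that opens DNA at replication origins. Mcm2 lay at 7.81, 8.59 and 8.85 (lowest, median and highest) on the CCl4 arrays, at 7.12, 6.91, 6.46 and 6.95 on the FSP1 ablated arrays and at 7.27, 7.62 and 7.30 on the aSMA ablated arrays. The groups did not overlap, and the difference of -1.40 (SE 0.18, adjusted p 0.004) passed in all 31 settings. Mcm5 lay at 8.90, 10.09 and 10.71 on the CCl4 arrays, at 7.30, 7.02, 6.78 and 7.07 on the FSP1 ablated and at 7.99, 8.95 and 8.38 on the aSMA ablated arrays, where array 2 just passed the lowest CCl4 array. Its difference was -2.35 (SE 0.34, adjusted p 0.004).

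Lig1, the ligase that joins Okazaki fragments, lay at 8.25 to 9.09 on the CCl4 arrays, 6.61 to 7.07 on the FSP1 ablated and 7.87 to 7.99 on the aSMA ablated arrays, a difference of -1.41 without overlap. Cdc45, which completes the active helicase, fell by 0.74, and Chaf1b, a subunit of the factor that places histones on new DNA, fell by 1.04, both without overlap and in all 31 settings. Against CCl4 arrays 1 to 3, 24 of the 28 genes fell with both ablations, and against CCl4 arrays 4 to 6 there were 7.

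Proximal promoters of genes from the 2 lists are shown here because these lists moved together and their promoter letters were not used to choose them. Each window covers 250 bases before and 50 bases after the annotated start (RefSeq, GRCm38.p6), is written 5′ to 3′ along the gene, and has in capitals each match to the cell cycle homology region (CHR: TTTGAA or TTCGAA), the CCAAT box (CCAAT) or an E2F-like site (TTTCCCGC, TTTGGCGC, TTCCCGCC or TTCGCGCC), on both strands, where the E2F-like letters overlap each other in part. The windows are chr4:118437294-118437593 (minus strand) for Cdc20, chr7:127042371-127042670 (minus) for Kif22, chr9:61946750-61947049 (minus) for Kif23, chr10:69352863-69353162 (minus) for Cdk1, chr8:75109259-75109558 (plus) for Mcm5 and, for comparison from among the genes that rose, chr13:55426755-55427054 (minus) for F12.
Cdc20: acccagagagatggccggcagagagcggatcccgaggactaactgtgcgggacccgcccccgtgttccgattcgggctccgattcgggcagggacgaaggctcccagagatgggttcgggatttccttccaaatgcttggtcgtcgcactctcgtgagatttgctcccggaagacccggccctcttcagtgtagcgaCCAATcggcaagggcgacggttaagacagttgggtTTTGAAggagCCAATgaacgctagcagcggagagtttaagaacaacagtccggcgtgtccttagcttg
Kif22: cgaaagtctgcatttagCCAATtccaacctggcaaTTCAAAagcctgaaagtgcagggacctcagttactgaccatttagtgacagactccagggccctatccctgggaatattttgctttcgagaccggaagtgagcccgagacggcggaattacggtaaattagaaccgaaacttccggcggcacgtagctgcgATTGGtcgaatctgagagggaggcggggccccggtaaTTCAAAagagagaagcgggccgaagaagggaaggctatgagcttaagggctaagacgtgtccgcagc
Kif23: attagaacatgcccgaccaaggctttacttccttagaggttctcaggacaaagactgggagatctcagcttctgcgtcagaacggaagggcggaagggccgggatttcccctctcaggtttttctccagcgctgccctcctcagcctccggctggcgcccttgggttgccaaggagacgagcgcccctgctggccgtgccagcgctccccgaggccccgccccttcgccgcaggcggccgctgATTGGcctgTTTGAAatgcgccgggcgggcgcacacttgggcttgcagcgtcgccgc
Cdk1: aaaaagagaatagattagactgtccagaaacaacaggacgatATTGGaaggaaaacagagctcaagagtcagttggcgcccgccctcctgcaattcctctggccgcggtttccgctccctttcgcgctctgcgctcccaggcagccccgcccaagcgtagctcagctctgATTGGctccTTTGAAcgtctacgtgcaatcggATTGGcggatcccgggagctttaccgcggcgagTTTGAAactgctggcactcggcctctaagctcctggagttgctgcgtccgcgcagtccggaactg
Mcm5: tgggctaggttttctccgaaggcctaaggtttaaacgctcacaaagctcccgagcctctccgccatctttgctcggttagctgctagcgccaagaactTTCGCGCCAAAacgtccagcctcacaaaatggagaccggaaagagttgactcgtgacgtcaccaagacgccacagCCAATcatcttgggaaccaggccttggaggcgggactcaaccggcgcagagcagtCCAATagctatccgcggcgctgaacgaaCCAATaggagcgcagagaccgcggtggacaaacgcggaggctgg
F12: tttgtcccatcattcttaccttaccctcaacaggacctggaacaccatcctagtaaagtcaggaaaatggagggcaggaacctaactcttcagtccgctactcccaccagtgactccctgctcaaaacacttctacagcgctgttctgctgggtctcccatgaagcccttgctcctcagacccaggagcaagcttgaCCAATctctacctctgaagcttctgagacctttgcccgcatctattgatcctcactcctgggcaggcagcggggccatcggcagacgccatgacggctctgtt

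In Cdc20 the CHR begins 18 bases before the start, between CCAAT boxes that begin 53 and 8 bases before it. Kif22 has a CHR 17 bases before the start and a CCAAT box 54 bases before it, both on the opposite strand, and Cdk1 has a CHR at 15 and 71 bases before the start. Mcm5 has no CHR in its window, but 2 overlapping E2F-like matches that begin 152 and 149 bases before the start, while F12 has a single CCAAT box and neither of the other motifs. Windows were found for 27 of the 34 mitosis genes and 26 of the 28 replication genes, and a gene can have several. A CHR lay in 76.7% of 30 windows of the mitosis list and in 12.9% of 31 windows of the replication list, against 19.2% of all 32851 windows. The E2F-like site had the opposite order, in 3.33% of the mitosis windows, 45.2% of the replication windows and 3.69% of all windows. A CCAAT box lay in 76.7% and 54.8% of the windows of the lists and in 37.4% of all windows. Over the genes lower with both ablations (339 windows of 278 genes) the shares were 25.1% for the CHR, 48.1% for the CCAAT box and 13% for the E2F-like site, and over those higher (133 windows of 98 genes) 15.8%, 32.3% and 1.5%. The lower genes include the mitosis and replication genes that fell, so their shares are not separate from those of the 2 lists. A match is a run of letters and not a shown binding site.

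The regulators of the G1 to S step fell in part. Of 12 measured, 6 fell with both ablations (50%) and 7 passed the pooled test, with a median difference of -0.44. E2f1, the transcription factor of many S phase genes, lay at 8.13, 8.22 and 8.42 (lowest, median and highest) on the CCl4 arrays, at 6.95, 6.57, 6.78 and 6.91 on the FSP1 ablated and at 7.81, 7.87 and 7.53 on the aSMA ablated arrays. The groups did not overlap, and the difference of -1.05 (SE 0.18, adjusted p 0.00522) was made up of -1.45 and -0.52. Ccne1, the cyclin E1 that starts S phase, fell by 0.69, and Dbf4, the activator of the origin-firing kinase Cdc7, by 1.11. Without aSMA ablated array 3, 3 genes of this list fell with both ablations, against CCl4 arrays 1 to 3 there were 7, and against CCl4 arrays 4 to 6 there were 0.

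Genes that copy or repair chromatin accompanied replication. Of 15 measured genes for histones and chromatin assembly, 7 fell with both ablations (46.7%), and of 13 for DNA repair, 4 (30.8%), with median differences of -0.45 and -0.29. Dnmt1, which copies DNA methylation onto the new strand, fell by 0.71 (SE 0.11, adjusted p 0.004). Lmnb1, the lamin B1 of the nuclear envelope, fell by 1.29, the nucleosome-binding protein gene Hmgn2 fell by 1.09 and the histone chaperone gene Asf1b fell by 0.45. Rad54l, a motor of recombination repair, fell by 0.96, Fancd2, of the repair of crosslinks, by 0.67, and Tipin, which protects replication forks, by 0.72. The difference for Tipin was -0.68 with FSP1 and -0.76 with aSMA ablation. The count for chromatin genes was 1 without aSMA ablated array 1, and that for repair genes was 2 without CCl4 array 2. Against CCl4 arrays 1 to 3 the counts were 10 chromatin and 6 repair genes, and against CCl4 arrays 4 to 6 they were 1 and 2.

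**Figure D3:**
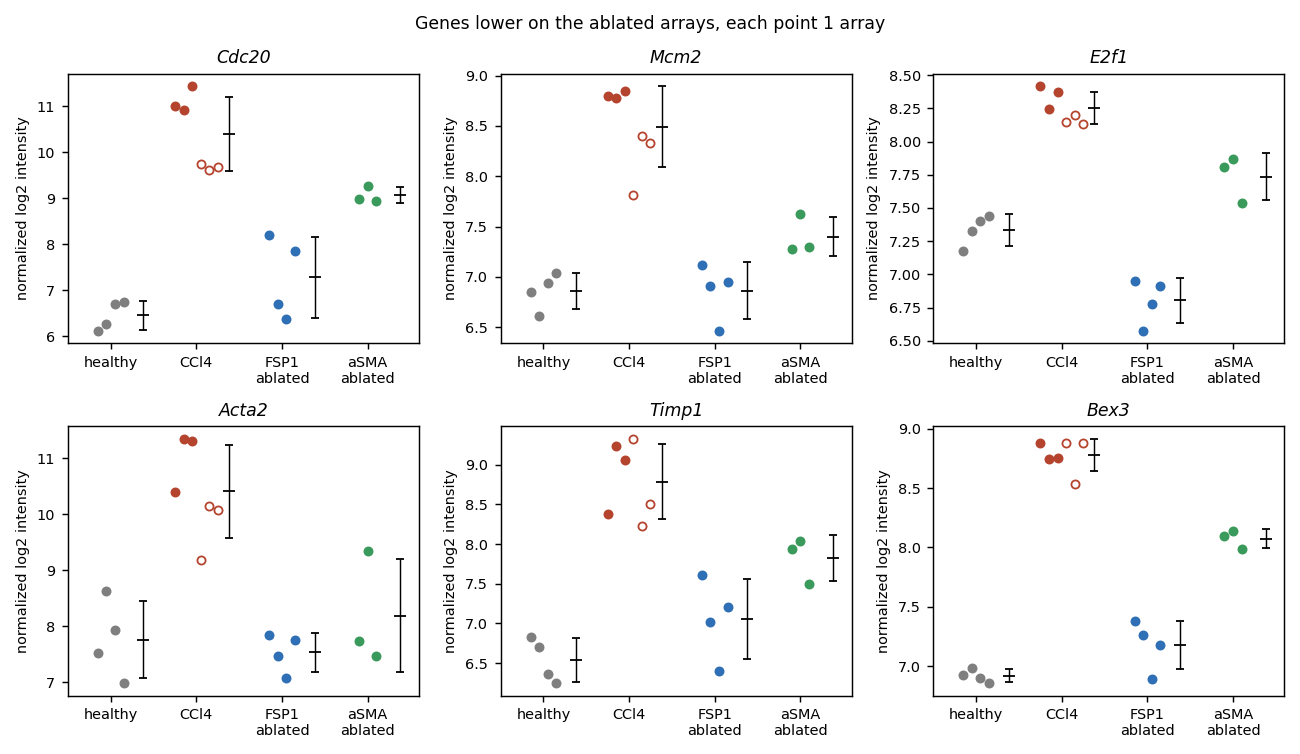
Normalized log2 intensity of 6 genes that fell with both ablations, 1 point per array, with mean and SD of each group beside it. Open points are CCl4 arrays 4 to 6. Cdc20, Mcm2, E2f1, Timp1 and Bex3 have all 7 ablated arrays below all 6 CCl4 arrays, and Acta2 has 1 aSMA ablated array, at 9.34, above the lowest CCl4 array, at 9.18.

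The contractile genes of myofibroblasts fell in part. Of 15 measured, 6 fell with both ablations (40.0%), all 15 had a lower mean, and the median difference was -0.37. Next to Acta2, the actin-binding proteins Tpm2 (tropomyosin 2) and Tagln (transgelin) fell, Tpm2 by 0.61 (SE 0.10, adjusted p 0.00488) and Tagln by 0.44 (SE 0.09, adjusted p 0.0149), without overlap between the groups. Smtn, the gene of smoothelin of contractile smooth muscle, lay at 8.06 to 8.57 on the CCl4 arrays, 7.10 to 7.32 on the FSP1 ablated and 7.77 to 8.32 on the aSMA ablated arrays, and fell by 0.80. Des, the gene of desmin of stellate cells, did not pass, with a difference of -0.37 (adjusted p 0.0926), and of the 17 measured stellate cell and portal fibroblast markers 0 moved the same way and 1 passed the pooled test. The contractile count was 3 without aSMA ablated array 1 or array 3, 9 against CCl4 arrays 1 to 3 and 1 against CCl4 arrays 4 to 6.

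Collagens themselves moved less uniformly. Col1a1, the main fibrillar collagen of scars, lay at 8.26, 8.94 and 9.69 (lowest, median and highest) on the CCl4 arrays, at 7.43, 6.55, 6.65 and 6.55 on the FSP1 ablated arrays and at 8.54, 9.66 and 8.03 on the aSMA ablated arrays. The FSP1 ablated arrays lay below all CCl4 arrays, as did aSMA ablated array 3, while aSMA ablated arrays 1 and 2 lay among them, and the pooled difference of -1.28 (SE 0.44, adjusted p 0.115) did not pass. Col3a1, a second fibrillar collagen, passed with -1.24 (SE 0.32, adjusted p 0.0328), as did the collagen-binding Sparc with -1.32 (SE 0.33, adjusted p 0.032), but the aSMA differences of -0.47 and -0.52 missed their threshold. Tnc, the gene of tenascin C, was 1 of 3 among 17 interstitial matrix genes that fell with both ablations (17.6%), by 0.70 (SE 0.13, adjusted p 0.00643). Leaving out CCl4 array 2, 5 or 6, aSMA ablated array 3 or any FSP1 ablated array left 1 such gene, and leaving out CCl4 array 3 gave 5, while the count was 1 against CCl4 arrays 1 to 3 and 4 against CCl4 arrays 4 to 6. Col3a1 and Sparc passed in 16 and 17 of 31 settings, and each missed the threshold without CCl4 array 2, 5 or 6 or without any FSP1 ablated array, Col3a1 also without CCl4 array 1, at adjusted p of 0.0538 to 0.0851.

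The enzymes that mature collagen had 5 of 17 measured genes lower with both ablations (29.4%). Lox, the lysyl oxidase that starts collagen crosslinks, lay at 6.96 to 7.86 on the CCl4 arrays, 5.96 to 6.56 on the FSP1 ablated and 6.31 to 7.18 on the aSMA ablated arrays, where 1 array overlapped, and fell by 0.95 (SE 0.17, adjusted p 0.00584). Its relative Loxl2 fell by 0.49, Serpinh1, the collagen chaperone HSP47, by 0.88, and Plod2, the lysyl hydroxylase of collagen crosslinks, by 0.37. Timp1, the tissue inhibitor of metalloproteinases, lay at 8.22, 8.78 and 9.33 on the CCl4 arrays, at 7.61, 7.02, 6.40 and 7.20 on the FSP1 ablated arrays and at 7.93, 8.04 and 7.49 on the aSMA ablated arrays. Its groups did not overlap, and it fell by 1.40 (SE 0.25, adjusted p 0.00584). The count of maturation enzymes was 2 without CCl4 array 2, 3 without FSP1 ablated array 2 or 3 or aSMA ablated array 1, 1 without aSMA ablated array 3, 3 against CCl4 arrays 1 to 3 and 0 against CCl4 arrays 4 to 6. Loxl2 (adjusted p 0.0567) and Plod2 (0.052) missed the threshold without CCl4 array 2, Plod2 also without FSP1 ablated array 2, 3 or 4 (up to 0.0592).

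Among genes that injured hepatocytes switch on, 3 of 19 fell with both ablations (15.8%). Bex3, a small adaptor protein gene, lay at 8.53, 8.82 and 8.88 on the CCl4 arrays, at 7.38, 7.26, 6.89 and 7.18 on the FSP1 ablated and at 8.10, 8.14 and 7.98 on the aSMA ablated arrays. The 3 groups were separate from each other, and the pooled difference was -1.22 (SE 0.18, adjusted p 0.004). Tubb6, a tubulin gene, fell by 1.53 and Sprr1a, a small proline-rich protein of stressed epithelia, by 1.27, both with some overlap. Keratins 8 and 18, the filament proteins of hepatocytes and bile duct cells, were 2 of the 8 measured cholangiocyte and progenitor genes: Krt8 fell by 1.16 (SE 0.27, adjusted p 0.0207) and Krt18 by 1.04 (SE 0.22, adjusted p 0.015). The count for injury genes was 1 without aSMA ablated array 1 or 3, 5 without array 2, 4 against CCl4 arrays 1 to 3, where 1 other rose, and 2 against CCl4 arrays 4 to 6. The count for the cholangiocyte list was 1 without CCl4 array 1, 2 or 3 and 0 without aSMA ablated array 1 or 3, with 3 against CCl4 arrays 1 to 3 and 0 against CCl4 arrays 4 to 6, and Krt8 missed the threshold without CCl4 array 2 (adjusted p 0.0587) or 3 (0.0526), as did Sprr1a without CCl4 array 2 (0.0502).

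Among the largest falls outside these lists, Selenoh, a nuclear selenoprotein gene, lay at 11.28, 11.89 and 12.56 on the CCl4 arrays, at 10.30, 9.81, 9.97 and 10.18 on the FSP1 ablated and at 10.70, 11.15 and 10.71 on the aSMA ablated arrays, a difference of -1.56 (SE 0.26, adjusted p 0.00412) without overlap. Gpx7, a peroxidase of the endoplasmic reticulum, fell by 1.32, also without overlap. From 3 other lists, 1 gene each fell: the ribosomal protein gene Rps12 by 0.42, Acot1, which splits acyl-CoA, by 1.19, and Ccng1, a p53 target, by 0.50. These were 1 of 14, 1 of 15 and 1 of 12 measured genes (7.1%, 6.7% and 8.3%), against 2.91% of all features. Single genes of this kind say little about their lists. Rps12 passed in 27 of 31 settings, with differences of -0.47 to -0.09 and adjusted p up to 0.608. Acot1 passed in 22 of 31 settings, and missed without CCl4 array 1, 2 or 3 or FSP1 ablated array 2, 3 or 4 (adjusted p up to 0.0791), Ccng1 without CCl4 array 2 (0.0502), and Tipin likewise (0.054).

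**Figure D4:**
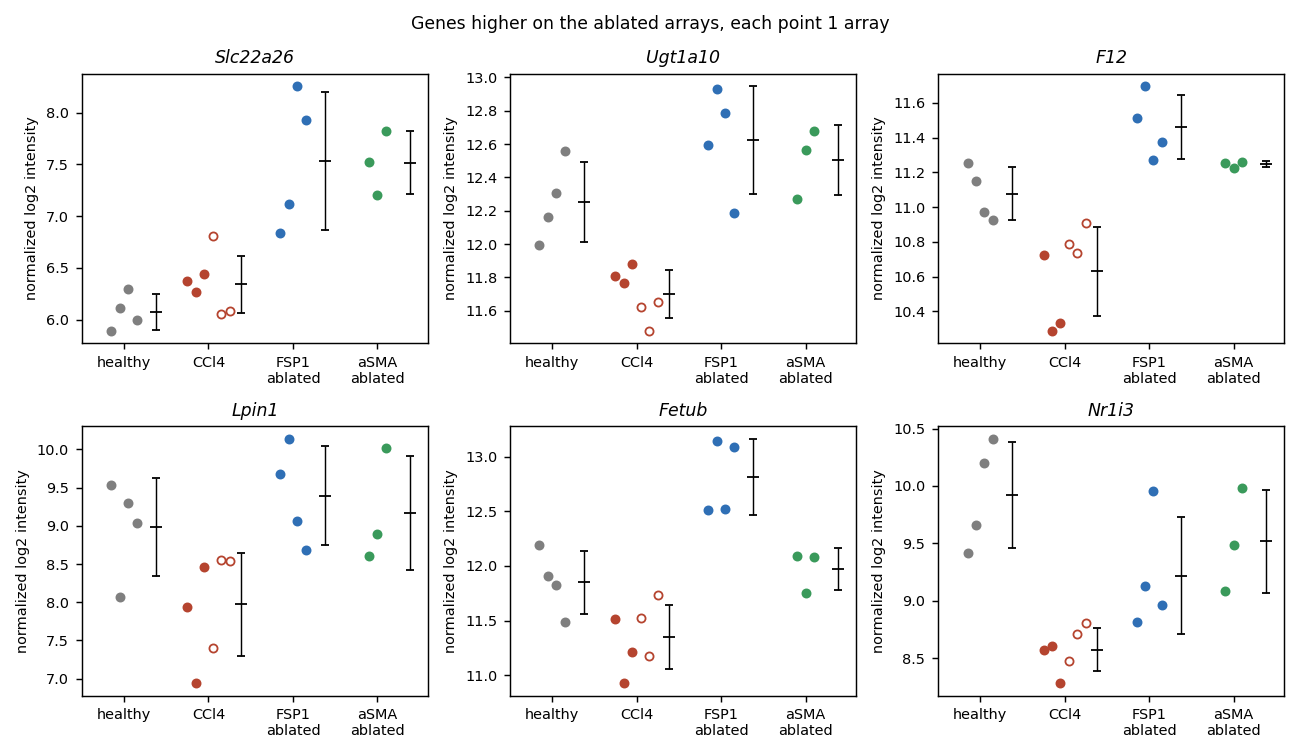
Normalized log2 intensity of 6 genes that rose with both ablations, 1 point per array, with mean and SD of each group beside it. Open points are CCl4 arrays 4 to 6. All 7 ablated arrays lie above all 6 CCl4 arrays for the 6 genes, with F12 at 10.29 to 10.91 on the CCl4 arrays and 11.23 to 11.70 on the ablated arrays.

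Genes that rose with both ablations numbered at most 3 in any list. Among 26 measured genes of cytochrome P450 and xenobiotic metabolism, 3 rose (11.5%, against 1.08% of all features) and the median difference was 0.27. Nr1i3, the nuclear receptor CAR that senses foreign compounds, lay at 8.28, 8.59 and 8.81 (lowest, median and highest) on the CCl4 arrays, at 8.82, 9.13, 9.96 and 8.96 on the FSP1 ablated and at 9.09, 9.48 and 9.98 on the aSMA ablated arrays. The lowest ablated array stood just above the highest CCl4 array, and the difference was 0.77 (SE 0.20, adjusted p 0.0385).

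Cyp2c39, a P450 that hydroxylates retinoic acid, lay at 11.26, 10.59, 10.76, 11.19, 7.15 and 7.10 on CCl4 arrays 1 to 6, at 12.16 to 12.34 on the FSP1 ablated and at 11.32 to 11.92 on the aSMA ablated arrays. Its difference of 2.34 (SE 0.63, adjusted p 0.0413) included CCl4 arrays 5 and 6, the low ones, which carry Y-linked signal. Without array 5 or array 6 it was 1.84 or 1.83, at adjusted p of 0.0719 and 0.0711. Each of these refits kept the other low array. Against CCl4 arrays 1 to 3, in limma's fit, Cyp2c39 differed by 1.41 with FSP1 ablation (adjusted p 0.217) and by 0.80 with aSMA ablation (0.594). Against CCl4 arrays 4 to 6 it differed by 3.80 (0.00175) and 3.19 (0.149). Arrays 5 and 6 had close mean levels in lists such as mitosis (8.07 and 8.05) and injury-induced hepatocyte genes (9.43 and 9.43). Leaving out 1 of them, here or elsewhere, thus keeps a similar array, and whether they share a source is not given. Near copies of Cyp2c39 in the Cyp2c cluster may share its probe. Cyp2d26, another P450, rose by 0.49 (SE 0.13, adjusted p 0.0418). The 3 rises depended on single arrays: the count was 0 without CCl4 array 2 or 5, FSP1 ablated array 2 or 3 or aSMA ablated array 3, and 1 without CCl4 array 1 or FSP1 ablated array 1 or 4, with 3 against CCl4 arrays 1 to 3 and 2 against CCl4 arrays 4 to 6, where 1 other fell. Cyp2e1, the P450 that turns CCl4 into its toxic radical, did not pass, with a difference of 0.83 (SE 0.32, adjusted p 0.167).

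Ugt1a10, a glucuronosyltransferase, lay at 11.48, 11.71 and 11.88 on the CCl4 arrays, at 12.60, 12.93, 12.79 and 12.19 on the FSP1 ablated and at 12.27, 12.56 and 12.68 on the aSMA ablated arrays. It rose by 0.87 (SE 0.12, adjusted p 0.004) in all 31 settings, although transcripts of the Ugt1a locus share their last exons and the probe may not part them. Slc22a26, a transporter of organic anions, lay at 6.06, 6.32 and 6.81 on the CCl4 arrays, at 6.84, 7.12, 8.25 and 7.93 on the FSP1 ablated and at 7.52, 7.21 and 7.82 on the aSMA ablated arrays, and rose by 1.19 (SE 0.20, adjusted p 0.00427), also in all 31 settings. It read close to the level of Cd79a on the lowest CCl4 array, and the size of its difference varied from 1.05 to 2.45 over the settings. On the healthy arrays, which carry Y-linked signal, it lay at 5.89 to 6.30, under the ablated arrays.

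The coagulation factors F12 and F7 lay at 10.29, 10.73 and 10.91 and at 9.35, 9.59 and 9.80 on the CCl4 arrays, and at 11.23 to 11.70 and 10.05 to 10.82 on the 7 ablated arrays. F12 rose by 0.74 (SE 0.11) and F7 by 0.72 (SE 0.11), each at an adjusted p of 0.004. Fetub, a secreted inhibitor of proteases, rose by 1.11 (SE 0.21, adjusted p 0.00824) as the 1 gene of 17 in the list of hepatocyte secreted proteins (5.9%), and Lbp, the binding protein of bacterial lipopolysaccharide, by 1.18 (SE 0.29, adjusted p 0.0263). Lbp missed the threshold without CCl4 array 1, 2 or 5 or FSP1 ablated array 4 (adjusted p up to 0.0715).

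Lpin1, a phosphatidate phosphatase of triglyceride synthesis, rose by 1.33 (SE 0.34, adjusted p 0.0324) without overlap, but missed the threshold without CCl4 array 1, 2 or 4, FSP1 ablated array 1, 2 or 3 or aSMA ablated array 3 (adjusted p up to 0.085). Crls1, the cardiolipin synthase of mitochondria, lay at 9.16 to 9.51 on the CCl4 arrays and at 9.53 to 10.39 on the ablated arrays and rose by 0.67 (SE 0.10, adjusted p 0.004). Lrrc8a, a subunit of the volume-regulated anion channel, rose by 0.86, the transporter family member Mfsd4b1 by 0.90, N4bp2l1 by 0.85 and Sh3yl1 by 0.67, all without overlap. Mfsd4b1 missed the threshold without CCl4 array 2 (adjusted p 0.0589), and Nr1i3 missed it in 8 of the 13 refits that left out 1 array of the compared groups (adjusted p up to 0.0894).

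Several of the genes that rose are known to be higher in female than in male mouse liver. Of 15 measured genes of a female-biased list, 3 rose with both ablations (20.0%) and 4 passed the pooled test, with a median difference of 0.67. Cux2, a repressor that mouse liver makes mainly in females, lay at 5.99, 6.18 and 6.36 on the CCl4 arrays, at 8.13, 8.29, 8.72 and 8.82 on the FSP1 ablated and at 6.57, 6.49 and 7.10 on the aSMA ablated arrays, without overlap and with a difference of 1.55 (SE 0.34, adjusted p 0.0151). Its CCl4 readings were as low as those of S100a4, and the size of its difference varied from 1.37 to 3.02 over the settings, of which 29 of 31 passed. Hamp2, a hepcidin gene with a close copy in Hamp, rose by 2.11 (SE 0.49, adjusted p 0.0207), overlapping through CCl4 array 4, and missed the threshold without CCl4 array 2 (0.0567). Slc22a26, above, is the third.

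The median of the female-biased list was 0.19 against CCl4 arrays 1 to 3, which share Xist signal with the ablated arrays, and 1.21 against CCl4 arrays 4 to 6, which lack it. CCl4 array 4 did not go with arrays 5 and 6: the mean level of the list was 7.92 to 8.04 on CCl4 arrays 1 to 3, 8.19 on array 4 and 6.92 and 6.96 on arrays 5 and 6. The mean of the male-biased list was 8.02 to 8.18 on arrays 1 to 3, 8.64 on array 4 and 10.17 and 10.11 on arrays 5 and 6. The low female-biased and high male-biased levels thus lay on the 2 arrays with Y-linked signal. Of the 15 female-biased genes, 3 rose against arrays 1 to 3 and 2 against arrays 4 to 6. Of 16 measured male-biased genes, 0 moved the same way, and against CCl4 arrays 4 to 6 there were 8, all lower. Their median difference from CCl4 arrays 1 to 3 was -0.08 with FSP1 ablation, and that from CCl4 arrays 4 to 6 was -1.06 with aSMA ablation. With Y-linked signal as a block in the fit, 734 features (5.71%) passed, 235 higher (1.83%) and 457 lower (3.55%) with both ablations, and 29 of 34 mitosis genes, 21 of 28 replication genes and 2 of 15 female-biased genes moved the same way.

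Among markers of immune and endothelial cells, 2 genes moved the same way, set against 1.08% of all features higher and 2.91% lower. Of 10 Kupffer cell markers, 1 rose (10%), Cd163, the scavenger receptor for haemoglobin (0.77, SE 0.19, adjusted p 0.028). Of 15 endothelial markers, 1 rose (6.7%), Stab2, the hyaluronan receptor of sinusoids (0.22, SE 0.06, adjusted p 0.032). Both missed the threshold without CCl4 array 2 or 5 or FSP1 ablated array 4 and without several other arrays (adjusted p up to 0.0676 and 0.073), and in both lists 0 genes moved the same way against CCl4 arrays 1 to 3 or against arrays 4 to 6. In the lists of monocytes and macrophages (16 measured), neutrophils (10), T and NK cells (10), B and plasma cells (4), interferon response (26), chemokines and cytokines (22) and MHC class II (6), 0 genes moved the same way. The mean level of the macrophage list was 8.93 to 9.57 on the CCl4 arrays, 8.52 to 9.09 with FSP1 ablation and 9.35 to 9.36 with aSMA ablation. Of the 45 lists, 26 held no gene that moved the same way, among them the TGF-beta pathway (13 measured), cholesterol synthesis (14), fatty acid synthesis (16) and the circadian clock (15), although 7 clock genes and 2 of fatty acid synthesis rose against CCl4 arrays 1 to 3.

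Both ablations moved these genes in the same direction, and for part of them the extent differed. All FSP1 ablated arrays had the low and all aSMA ablated arrays the high Alb signal. A difference between the ablations thus cannot be told apart from a difference between these kinds of array. FSP1 ablation gave the larger difference in 341 of the 374 lower and in 109 of the 139 higher features. The difference between the ablations passed its own test for 581 of all features (4.52%), and for 67 of the lower and 8 of the higher features, and in each of these FSP1 ablation was further from CCl4. Cux2 rose by 2.31 with FSP1 and by 0.54 with aSMA ablation (adjusted p of the difference 3.89e-05), and E2f1 differed from CCl4 by -1.45 and -0.52 (0.000505). Acta2 (-2.87 and -2.22, adjusted p of the difference 0.531), Slc22a26 (1.20 and 1.18, 0.985), Ugt1a10 (0.92 and 0.81, 0.752) and N4bp2l1 (0.86 and 0.83, 0.965) did not differ beyond the spread, which does not show that they moved alike.

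**Figure D5:**
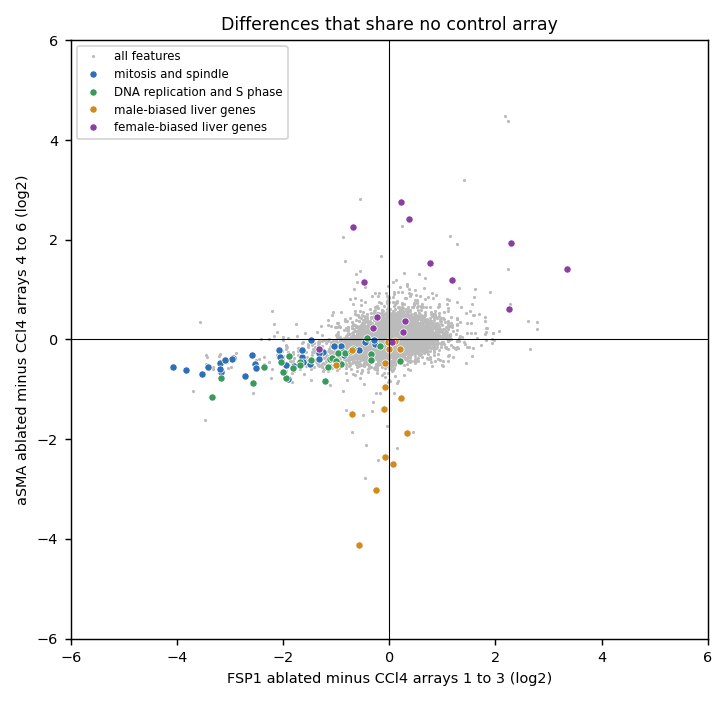
Difference of FSP1 ablated arrays from CCl4 arrays 1 to 3 (horizontal axis, log2) against the difference of aSMA ablated arrays from CCl4 arrays 4 to 6 (vertical axis, log2), 1 point per feature, with 4 lists coloured. The mitosis genes lie to the left of 0 and mostly just under 0 on the vertical axis (list medians -1.93 and -0.40), and the sex-biased genes spread along the vertical axis.

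Since the shared CCl4 arrays move both ablations together, each ablation was also set against CCl4 arrays of its own, paired by the Alb signal. With FSP1 ablated against CCl4 arrays 1 to 3 and aSMA ablated against CCl4 arrays 4 to 6, the differences correlated at Pearson's r of 0.33 and Spearman's rho of 0.27 across the 12863 features, which are not independent replicates. Here 1688 (13.1%) and 4 (0.0311%) features passed, and 0 passed lower and 2 higher in both. With the control arrays exchanged, r was -0.08 and rho -0.17, 2185 (17%) and 1225 (9.52%) features passed, 181 lower and 27 higher in both and 231 in opposite directions. In the first pairing the aSMA ablated arrays, which have Xist signal, are set against CCl4 arrays that lack it (Xist difference 2.81). In the exchanged pairing each ablation is set against CCl4 arrays of the other Alb kind, and FSP1 ablation against those without Xist signal. The part of these signals was not tested.

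The size of the aSMA differences moved with the CCl4 arrays used. The mitosis list had a median of -1.93 for FSP1 ablation against CCl4 arrays 1 to 3 and of -0.40 for aSMA ablation against CCl4 arrays 4 to 6, and the replication list had -1.14 and -0.44. With the controls exchanged the medians were -1.32 for FSP1 and -1.13 for aSMA ablation in the mitosis list and -0.93 and -0.80 in the replication list. The difference of Cdc20 was -3.84 (SE 0.34, adjusted p 2.76e-06) with FSP1 ablation and, with aSMA ablation, -0.61 (SE 0.36, adjusted p 0.742). For Acta2 the values were -3.48 (SE 0.45, adjusted p 9.55e-05) and, with aSMA ablation, -1.61 (SE 0.48, adjusted p 0.312), and for Mcm2 they were -1.95 (SE 0.16, adjusted p 2.1e-06) and, with aSMA ablation, -0.78 (SE 0.17, adjusted p 0.149). In the exchanged pairing the aSMA differences were -2.05 for Cdc20 (SE 0.36, adjusted p 0.00316), -2.83 for Acta2 (SE 0.48, adjusted p 0.0024) and -1.41 for Mcm2 (SE 0.17, adjusted p 0.000622). Among the genes that rose, and with the Alb-matched controls, the difference of Slc22a26 was 1.17 (SE 0.28, adjusted p 0.0126) with FSP1 ablation and 1.20 (SE 0.30, adjusted p 0.205) with aSMA ablation, and that of F12 was 1.02 (SE 0.12, adjusted p 4.13e-05) with FSP1 ablation and 0.44 (SE 0.13, adjusted p 0.293) with aSMA ablation. For 82 of the named genes the pooled difference was followed across the settings. Of these 78 had passed the pooled test, so their counts do not stand for all named genes. Of the 78, 27 passed against CCl4 arrays 4 to 6, 65 against CCl4 arrays 1 to 3 and 52 without CCl4 array 2.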

How the data were processed

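RNA of mouse liver was measured on 17 Illumina bead arrays. The authors deposited 1 intensity per probe and array, read with GenomeStudio per the submitters' processing notes; how that program corrected or scaled them is not given in the sources used here. Healthy arrays had upper quartiles of 63.7 to 65.7, against 165.4 to 178.8 elsewhere, and their levels serve only as orientation. A second table, with 34 columns whose names match no label, was not used.

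The design foresaw intensities without detection p: limma's normexp background correction (offset 50), quantile normalization over 17 arrays and log2. Probes above the 95th percentile of each array's background (mode of the deposited values, SD of the values below it) on at least 3 arrays were kept, 17450 of 25697. The brightest probe stood for a gene, which gave 12863 features, 11792 with a symbol. Of all probes 23978 have 1 symbol in the platform annotation, 0 several and 1719 none, and 23962 matched RefSeq by Entrez identifier. 2 of the 513 features that moved the same way were below background throughout 1 group and are not named.

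limma 3.58.1 (lmFit, eBayes; R 4.3.3) was fitted to healthy, CCl4 and ablated arrays (4, 6 and 7), two-sided, with Benjamini-Hochberg adjustment over all features and a threshold of 0.05. Each ablation came from a fit in 4 groups. The steps were tested on simulated data. The number of arrays limits the precision.

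Named genes are the 15 largest rises and falls among genes with 1 symbol that moved the same way without overlap, up to 4 genes with the smallest p of each of 45 lists, and a few set genes (S100a4, Acta2, Col1a1, Col3a1, Timp1, Mki67, Cdk1, Cyp2e1, Alb, Xist). Genes and lists were chosen with earlier results of these data known. Lists are described by counts. Alternatives varied background correction, normalization, filter, probes, variance model, blocks, the CCl4 arrays used and each array.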

Additional observations from a re-analysis of the deposited data

Results flagged for a closer look

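Among the named genes, 1 array stood apart from the others of its group, by Dixon's test of the gap, in these cases. On the CCl4 arrays these were Knstrn on CCl4 array 4 (7.34, others 7.98 to 8.18) and Hamp2 on CCl4 array 4 (12.64, others 9.31 to 10.38). On the FSP1 ablated arrays they were Kif23 on array 1 (6.40, others 6.02 to 6.06), Sparc on array 1 (10.33, others 9.26 to 9.36), Col1a1 on array 1 (7.43, others 6.55 to 6.65) and Tubb6 on array 3 (7.83, others 8.83 to 8.94). Further ones were Sprr1a on array 3 (6.09, others 6.26 to 6.27), Fancd2 on array 3 (5.89, others 6.01 to 6.04), Lbp on array 4 (12.51, others 11.68 to 11.78) and Crls1 on array 2 (10.39, others 9.96 to 9.99). Chance alone puts about 1 in 20 groups past this limit, and the aSMA ablated group, with 3 arrays, was not tested. Over the many genes looked at, several such cases arise by chance alone, so the cases listed do not single out faulty arrays.

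FSP1 ablation differed from aSMA ablation, in limma's test of the difference itself, for named genes that include the following. They are given with the log2 difference FSP1 minus aSMA and its adjusted p. The lowest values were those of Gsta1 (-2.40, 0.00349), Col1a1 (-1.95, 0.00878), Cdc20 (-1.79, 0.0437), Cdk1 (-1.65, 0.0155), Mcm5 (-1.40, 0.0283), Sparc (-1.39, 0.0222) and Anxa2 (-1.34, 0.0414). Next came Col3a1 (-1.34, 0.0175), Kif22 (-1.29, 0.0112), Cdca2 (-1.27, 0.0403), Kif2c (-1.22, 0.0366), Lmnb1 (-1.20, 0.00885), Stmn1 (-1.16, 0.00573) and Anxa5 (-1.15, 0.00197). Smaller differences were those of Krt8 (-1.14, 0.0175), Lig1 (-1.11, 0.0034), Knstrn (-0.98, 0.00711), Spag5 (-0.98, 0.00695), Gpx7 (-0.96, 0.0242), Ncaph (-0.95, 0.0336) and E2f1 (-0.93, 0.000505). The remaining lower genes were Krt18 (-0.90, 0.0311), Bex3 (-0.89, 0.000505), Hmgn2 (-0.89, 0.0418), Incenp (-0.83, 0.0186), Smtn (-0.81, 0.00561), Foxm1 (-0.65, 0.0382) and Rad54l (-0.64, 0.0113). Last came Dnmt1 (-0.44, 0.0395). Higher with FSP1 than with aSMA ablation were Cux2 (1.77, 3.89e-05), Fetub (0.84, 0.0352) and Cyp17a1 (2.49, 0.0362). In each of these genes the FSP1 ablated arrays stood further from the CCl4 arrays than the aSMA ablated arrays did.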

How the results depend on the processing

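With 633 features in the pooled comparison, 513 that moved the same way and 581 that differed between the ablations, the counts moved by over 1.5 times under these alternatives. Array weights gave 1266, 1140 and 2545, CCl4 arrays 1 to 3 gave 1208, 1177 and 1170, and CCl4 arrays 4 to 6 gave 172, 172 and 1170. The 4-group fit with ablations weighted by arrays gave 962 in the pooled comparison, and the Alb signal as a block gave 306 for the difference between ablations. With the Alb block 935 features passed the pooled comparison. Of these 343 moved the same way, 94 higher and 249 lower, and only 252 of the 513 were among them. The cause was not tested. Leaving out 1 array gave 302 to 924, 301 to 710 and 99 to 785. The pooled count moved by over 1.5 times without CCl4 array 2 (302) or 3 (395) or FSP1 ablated array 1 (385), 2 (384) or 3 (361), the same-way count without CCl4 array 2 or aSMA ablated array 3 (301 each), and the difference without FSP1 ablated array 1 (372) or 2 (214) or aSMA ablated array 1 (321), 2 (99) or 3 (230). Centring on the median gave 748 features, 44.4% of them higher against 28.4%. Of the 78 genes that passed among the 82 followed, 0 reversed in these settings, 66 passed on the deposited values in log2 and 78 with the 99th percentile filter.

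Same-numbered arrays did not all deviate together (21 pairs, r of -0.30 to 0.38, 6 of them over 0.1), although the 3 pairs among the CCl4 and ablated arrays numbered 2 had r of 0.17 to 0.38, and no label ties the numbers. With the replicate block 488, 488 and 561 features passed, 336 of the 513 same-way features stayed, and 17 of the 78 followed genes that had passed lost their call. Of 25697 probes, 17450 rose above background often enough to be tested, and nothing is said of the others.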

Other observations

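Genes that passed the pooled test but missed the aSMA threshold included the 8 that follow, with larger differences under FSP1 than under aSMA ablation. Gsta1, a glutathione transferase with near copies, lay at 9.80, 10.15 and 10.47 (lowest, median and highest) on the CCl4 arrays, at 7.46, 6.94, 6.99 and 6.86 on the FSP1 ablated and at 9.16, 10.07 and 9.14 on the aSMA ablated arrays, a pooled difference of -2.05 (SE 0.50, adjusted p 0.0273). Cyp17a1, a P450 of steroid synthesis and the fourth gene of the female-biased list that passed the pooled test, lay at 7.70, 8.33 and 10.12 on the CCl4 arrays, at 12.26, 11.91, 11.57 and 13.33 on the FSP1 ablated and at 9.32, 10.34 and 9.66 on the aSMA ablated arrays, a difference of 2.56 (SE 0.63, adjusted p 0.0285). Of the aSMA ablated arrays, array 2 lay within the CCl4 range for Gsta1 and arrays 1 and 3 for Cyp17a1. The membrane-binding annexins Anxa2 and Anxa5 fell by 1.45 and 0.93 (adjusted p 0.0244 and 0.032), the basement membrane collagen Col4a1 by 1.02 (0.0303), the lactate dehydrogenase Ldha by 0.60 (0.0457) and the p53 target Phlda3 by 0.55 (0.0426), while the liver glycogen phosphorylase Pygl rose by 0.36 (0.0492). These genes passed in 12 (Ldha) to 25 (Anxa2) of 31 settings, and each missed the threshold without CCl4 array 2, at adjusted p of 0.0582 to 0.12, and without several other arrays.

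The largest rises of all belonged to 2 probes with no gene symbol, ILMN_2731963 and ILMN_2943135, which were singled out after their values were seen. The first lay at 6.12 to 6.33 on the healthy arrays, at 9.68, 8.48, 9.18, 8.46, 6.25 and 5.93 on CCl4 arrays 1 to 6, and at 10.36 to 12.39 on the FSP1 ablated and 10.97 to 11.68 on the aSMA ablated arrays. The second lay at 5.79 to 6.08, at 10.04, 8.99, 9.52, 8.80, 6.41 and 6.51, and at 10.74 to 12.72 and 11.56 to 11.98 on the same arrays. Both stood above all CCl4 arrays on all 7 ablated arrays, with pooled differences of 3.32 (SE 0.53) and 3.33 (SE 0.52) and an adjusted p of 0.004 each, and the CCl4 arrays with Y-linked signal, 5 and 6, were the lowest of the CCl4 arrays, within or below the range of the healthy arrays for the first probe and above it for the second. The healthy arrays carry Y-linked signal too. Against separate controls they differed by 2.23 and 2.19 (FSP1 ablation, CCl4 arrays 1 to 3) and by 4.39 and 4.48 (aSMA ablation, CCl4 arrays 4 to 6).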
